A study of Rattus norvegicus with 6 samples.

Results

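The genes described here are 9 markers of astrocytes and Müller glia (Gfap, Vim, Glul, Slc1a3, Slc1a2, Aqp4, Gjb6, S100b and Fgfr3), read out in cultures of purified rat retinal ganglion cell neurons (RGCs). They were taken as every probe set whose annotation gives 1 of these symbols and no other gene. On these arrays each transcript is read by 1 or more probe sets, each the summary of several short oligonucleotides. All 9 genes were measured, by 17 of the 31042 probe sets on the array. Fgfr3 and Slc1a2 had 2 probe sets each, Glul, Aqp4 and Slc1a3 had 3 each, and the other 4 genes had 1.

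Astrocytes and Müller glia are the macroglia of the retina. Astrocytes enter along the optic nerve and lie among the ganglion cell axons, while Müller glia are made by the retinal progenitors and span the tissue. Both clear glutamate from synapses and turn it into glutamine, buffer water and potassium, and are coupled through gap junctions. On injury they increase intermediate filament proteins, above all Gfap. Several of these genes are not exclusive to glia. Vim, for example, is also made by fibroblasts, endothelial cells and microglia.

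RNA came from RGCs treated for 12 hours with Gpc4 (2 arrays), treated for 12 hours with TSP1 (2 arrays), or left untreated (Alone, 2 arrays). Gpc4, a heparan sulfate proteoglycan that astrocytes secrete, was a His-tagged protein that HEK293 cells (a human embryonic kidney line) secreted and nickel beads captured. TSP1 is thrombospondin 1, another synapse-inducing protein of astrocytes, given as recombinant mouse protein. The study asked which neuronal mRNAs Gpc4 changes, with TSP1 as a second synapse-inducing control. The labels give neurons of postnatal day 6 and 12 days in culture, where the methods give a range of ages and a minimum time before treatment. All 3 groups grew with BDNF, CNTF and forskolin. Retinas of Sprague Dawley pups of both sexes were dissociated, passed over lectin dishes that hold back microglia and fibroblasts, and bound to antibody dishes that retain RGCs. FUDR was added to stop fibroblast growth. No astrocytes were plated, so a glial signal can come from cells carried through the purification or from the neurons themselves, and the arrays do not separate these. Each array held RNA of pooled wells, and the experiment was run on 2 separate RGC cultures, which the replicate numbers 1 and 2 of the labels are taken to mark.

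Values are log2 RMA expression values, background-corrected and normalized between arrays by the authors. Array medians lay between 5.96 and 5.99, lower quartiles between 4.25 and 4.32, and arrays correlated at 0.995 to 0.9973 across probe sets. The median difference between replicates was 0.10 for Gpc4 and 0.11 for TSP1 and for Alone. The files hold no detection call, so a value below the array median is not shown to be above background. The RGC label held: 12 of 14 listed ganglion cell markers had a probe set, all 12 were above the median on all 6 arrays (7.74 to 14.03), and none differed between conditions or cultures at the threshold used below. Their summed linear signal was 81408 and 81523 in Gpc4, 81901 and 81244 in TSP1, and 82333 and 80951 in Alone arrays. Thy1, a surface protein of RGCs, was at 11.50 and 11.44 in Gpc4, 11.47 and 11.50 in TSP1, and 11.67 and 11.61 in Alone. Pou4f2 and Pou4f3 were the listed ganglion cell markers without a probe set. Of 12 listed markers of other retinal neurons, 8 were measured, with 2 above the median on all arrays, 5 below it on all and 1 on both sides. Those above it were Gad1 (7.14 to 7.89) and Slc6a9 (7.28 to 7.62). Here and below, the values of a condition are given for replicate 1 and then replicate 2.

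Most of the glial markers were dim. Of the 17 probe sets, 10 were below the array median on all 6 arrays, 8 of them below the lower quartile of every array. Another 6 were above the median on all 6 arrays, and 1 probe set of Aqp4 lay on both sides. For 5 genes (Gfap, Fgfr3, Gjb6, Slc1a2 and S100b) every probe set was below the median throughout. Only Glul, Slc1a3 and Vim had one above it on all arrays.

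**Figure D1:**
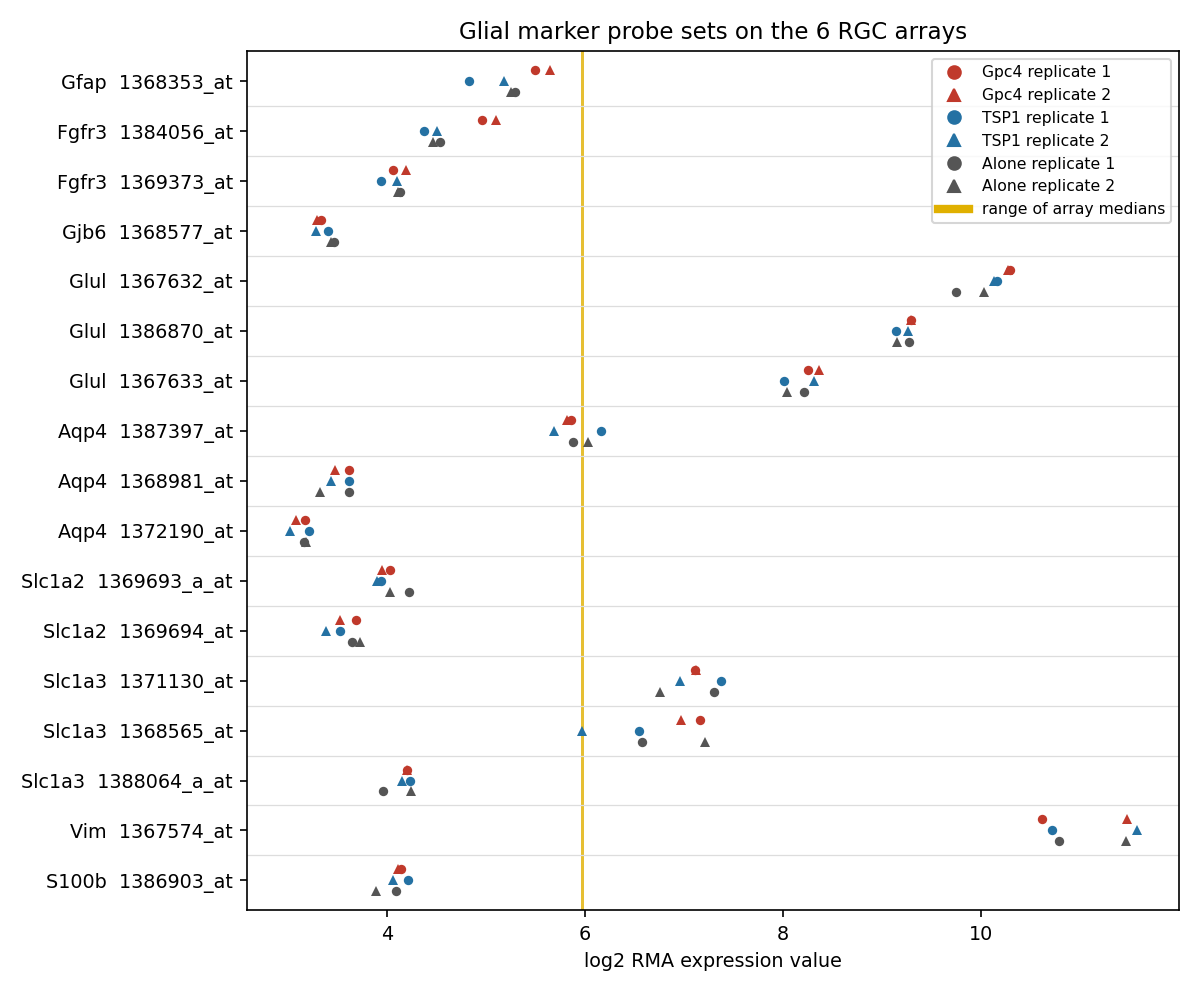
Log2 RMA value (horizontal axis) of each of the 17 glial marker probe sets (rows) on each array, in red for Gpc4, blue for TSP1 and grey for Alone, with circles for replicate 1 and triangles for replicate 2. The yellow band is the range of the array medians, 5.96 to 5.99; 10 probe sets lie left of it on all arrays, and the Vim triangles lie right of the Vim circles in all 3 conditions.

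Among the dim genes, the astrocytic filament gene Gfap ranged from 4.83 to 5.65 over the 6 arrays. Gjb6, which encodes the astrocyte gap junction protein connexin 30, ranged from 3.29 to 3.47. S100b, a calcium-binding protein of astrocytes, ranged from 3.89 to 4.21. Each of these ranges lies wholly under the array medians. They span 0.82 for Gfap, 0.18 for Gjb6 and 0.32 for S100b. The glutamate transporter Slc1a2 (GLT-1) ranged from 3.90 to 4.22 on probe set 1369693_a_at and from 3.39 to 3.73 on 1369694_at. Aqp4, the water channel of glial endfeet, ranged from 3.02 to 3.21 on 1372190_at and from 3.33 to 3.62 on 1368981_at. A further Aqp4 probe set, 1387397_at, ranged from 5.69 to 6.16, so the probe sets of this gene do not sit on the same side of the median.

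Among the brighter genes, Glul encodes glutamine synthetase, which turns glutamate into glutamine. Its 3 probe sets were above the median on all arrays, with ranges of 9.74 to 10.29, 9.14 to 9.29 and 8.01 to 8.36. Vim, the intermediate filament of Müller glia and of immature astrocytes, ranged from 10.61 to 11.57. The glutamate transporter Slc1a3 (GLAST) was above the median on 1371130_at (6.76 to 7.37) and on 1368565_at (5.97 to 7.21), and below the lower quartile on 1388064_a_at (3.96 to 4.24). The lowest Slc1a3 value on 1368565_at, in a TSP1 array, was at the array medians. In bulk RNA, fewer glial cells and less of a transcript per cell cannot be told apart.

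Other genes of macroglia were split in the same way. Of 24 further astrocyte and Müller glia genes, 20 were measured, 8 of them above the median on all arrays, 11 below it on all and 1 on both sides. Below it were Aldh1l1, a folate enzyme of astrocytes (4.49 to 4.79), Rlbp1, a retinoid-binding protein of Müller glia (4.51 to 4.93), and Kcnj10, a glial potassium channel (3.38 to 3.65). Above it were Aldoc, a glycolytic enzyme (12.46 to 12.60), and Clu, a secreted chaperone (12.33 to 12.84). The summed linear signal of the 9 markers, 1 probe set per gene, was 3132 and 4394 in Gpc4, 3150 and 4437 in TSP1, and 2939 and 4139 in Alone arrays. It was higher in replicate 2 than in replicate 1 of each condition, and Vim is the brightest term in it. Even so, 5 of the 9 genes had the lower mean in replicate 2 and 4 the higher, with a median difference of -0.06.

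To show the DNA next to the start sites of 3 of the genes, the 250 bases before the annotated start are printed for Fgfr3, Gfap and Vim. Each is given 5′ to 3′ on the strand of the gene, from RefSeq (assembly GRCr8). Among these 3, only Vim passed the threshold used below, in the comparison of the cultures. Capitals mark matches, on either strand, to 4 motifs searched in all promoters: the GC box GGGCGG, the TATA box TATAAA, the AP-1 motif TGANTCA and the STAT motif TTCNNNGAA. The motifs were chosen after the expression values had been seen.
Fgfr3, chr14:81227210-81227459, minus strand: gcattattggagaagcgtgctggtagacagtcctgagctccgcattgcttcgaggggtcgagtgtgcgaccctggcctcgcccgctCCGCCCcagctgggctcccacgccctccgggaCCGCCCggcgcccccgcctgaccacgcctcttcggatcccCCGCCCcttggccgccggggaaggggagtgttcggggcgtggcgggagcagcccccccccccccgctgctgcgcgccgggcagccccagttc
Gfap, chr10:88361662-88361911, minus strand: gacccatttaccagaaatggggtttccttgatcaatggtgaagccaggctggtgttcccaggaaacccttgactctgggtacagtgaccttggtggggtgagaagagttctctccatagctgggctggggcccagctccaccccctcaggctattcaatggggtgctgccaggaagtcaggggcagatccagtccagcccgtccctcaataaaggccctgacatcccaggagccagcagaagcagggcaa
Vim, chr17:81577011-81577260, plus strand: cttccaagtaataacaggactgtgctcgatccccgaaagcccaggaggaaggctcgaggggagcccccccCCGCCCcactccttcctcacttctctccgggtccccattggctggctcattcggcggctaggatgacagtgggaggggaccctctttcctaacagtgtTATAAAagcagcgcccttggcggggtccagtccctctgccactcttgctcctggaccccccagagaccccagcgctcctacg
The Fgfr3 window has a GC content of 74.4% and 3 GC boxes, all read on the opposite strand. The Vim window (62.4% GC) has 1 GC box on the opposite strand and a TATA box 82 to 77 bases before the start. The Gfap window (57.6% GC) matches none of the 4. All 9 genes had an entry, with 15 promoters in all, and none of the 15 windows holds the AP-1 or the STAT motif. The windows of Slc1a3 overlap over most of their length, so the 15 are not all separate sequences. Of 33469 rat promoters of the same length, 30.5% hold the GC box, 12.9% the TATA box, 6.34% the AP-1 motif and 7.67% the STAT motif. No match overlapped another motif, and a match is a description of the letters only.

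The first comparison asked whether Gpc4 changed glial transcripts in the RGC cultures. None of the 17 probe sets passed the threshold, an adjusted p under 0.05 in limma (a linear model that borrows the error estimate from all probe sets, with Benjamini-Hochberg adjustment over 31042 of them). In this comparison 0.0838% of all probe sets passed. At an unadjusted p under 0.05 there were 3 of the 17 (Fgfr3, Glul and Gfap, all higher with Gpc4), beside 6.88% of all probe sets. The median difference over the 17 was 0.08 on the log2 scale and that over all probe sets was -0.005.

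Fgfr3, an FGF receptor that astrocytes express, had the smallest p. On 1384056_at its values were 4.96 and 5.10 in Gpc4 arrays and 4.54 and 4.47 in Alone arrays. Both Gpc4 arrays were above both Alone arrays, and also above both TSP1 arrays. The means were 5.03 ± 0.10 in Gpc4 and 4.51 ± 0.05 in Alone (SD, n = 2 each). The difference was 0.53 on the log2 scale, or 1.44-fold in signal (standard error 0.10, 95% interval 0.30 to 0.75, adjusted p = 0.237 from limma), with 0.42 in replicate 1 and 0.63 in replicate 2. All 6 values are below the array medians, where a difference in signal can understate one in mRNA. The other Fgfr3 probe set, 1369373_at, had 4.06 and 4.19 in Gpc4 and 4.13 and 4.11 in Alone arrays, a difference of 0.005 with an interval of -0.22 to 0.23. The groups overlap there, so the difference was seen on 1 of the 2 Fgfr3 probe sets. All 6 values of 1369373_at were below the lower quartile of their array and are not shown to be above background.

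Gfap had 5.50 and 5.65 in Gpc4 arrays, and 5.29 and 5.25 in Alone arrays. The Gpc4 arrays were again the 2 highest of the 6, all under the array medians. The difference was 0.31 (95% interval 0.01 to 0.60, adjusted p = 0.724 from limma), with 0.21 in replicate 1 and 0.40 in replicate 2. Glul on 1367632_at had 10.29 and 10.27 in Gpc4 arrays, against 9.74 and 10.03 in Alone arrays. Both Gpc4 arrays were above all others, and the Alone arrays were the 2 lowest and the furthest apart. The difference was 0.40 (95% interval 0.14 to 0.65, adjusted p = 0.558 from limma), with 0.55 in replicate 1 and 0.24 in replicate 2. The other Glul probe sets differed by 0.08 (1386870_at) and 0.18 (1367633_at), with intervals that include 0.

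**Figure D2:**
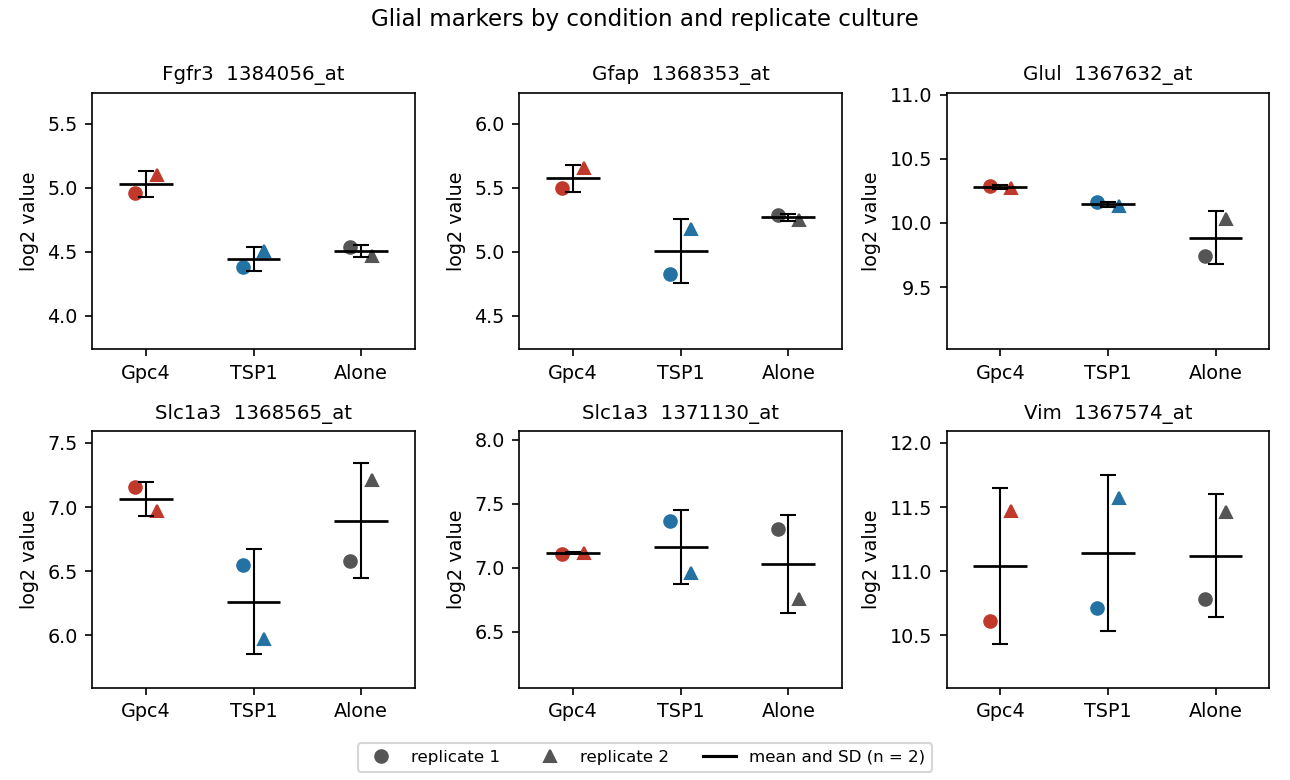
Log2 values (vertical axes, each spanning the same number of log2 units) of 6 glial marker probe sets by condition, with Gpc4 and TSP1 left of Alone; circles are replicate 1, triangles replicate 2, and bars the mean and SD (n = 2). For Fgfr3 and Gfap the Gpc4 points lie above the rest, the 2 bright Slc1a3 probe sets order the arrays differently, and for Vim the triangles lie above the circles in every condition.

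The remaining markers gave smaller or mixed differences between Gpc4 and Alone. S100b was at 4.14 and 4.11 in Gpc4 and 4.09 and 3.89 in Alone arrays (difference 0.14, interval -0.11 to 0.38). Gjb6 was at 3.34 and 3.30 in Gpc4 and 3.47 and 3.44 in Alone arrays (difference -0.14, interval -0.34 to 0.07). These 2 genes did not overlap between the groups but differed in opposite directions. In all, 6 of the 17 probe sets had both Gpc4 arrays above both Alone arrays, as 4977 of all 31042 probe sets did, and 2 had both below, where 18.9% of all did. Both Gpc4 arrays were above the 4 other arrays for 4 of the 17 (Gfap, Fgfr3 and 2 of Glul), beside 6.06% of all probe sets. Slc1a2 differed by -0.14 and -0.08, Aqp4 by -0.12, 0.08 and -0.05, and Slc1a3 by 0.17, 0.09 and 0.10, all with intervals that include 0. Vim differed by -0.08, with -0.17 in replicate 1 and 0.01 in replicate 2. The Vim interval of -0.93 to 0.77 is wide, since the fit without the replicate number counts the gap between cultures as error.

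**Figure D3:**
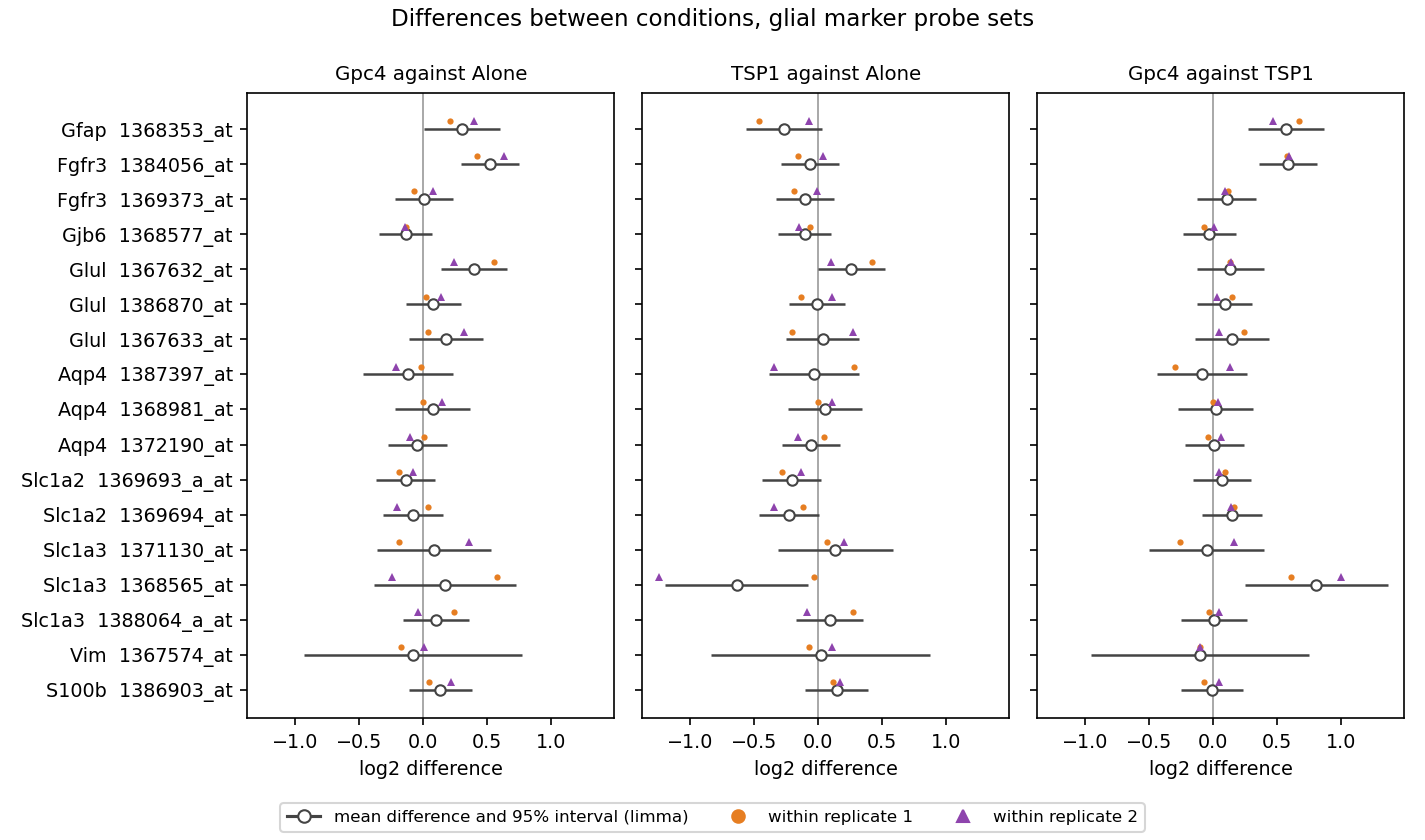
Difference in log2 value (horizontal axes) for the 17 glial marker probe sets (rows), in a panel per comparison (each treatment against Alone, and Gpc4 against TSP1); open circles and lines are the mean difference with its 95% interval from limma, and small coloured symbols are the differences within replicate 1 and replicate 2. None passes the threshold; Fgfr3 on 1384056_at has both small symbols right of 0 against Alone (0.42 and 0.63) and against TSP1 (0.58 and 0.59).

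The second comparison set TSP1 against the same Alone arrays, so the comparisons are not independent. None of the 17 probe sets passed (limma), nor did any other probe set on the array (0%). At an unadjusted p under 0.05 there were 2 of the 17, beside 4.4% of all probe sets. One was Slc1a3 on 1368565_at, with 6.55 and 5.97 in TSP1 arrays and 6.58 and 7.21 in Alone arrays. Both TSP1 arrays were below all others, but the first by a margin within the spread of replicates. The difference was -0.64, or 0.644-fold in signal (standard error 0.24, 95% interval -1.19 to -0.08, adjusted p = 0.985 from limma), with -0.03 in replicate 1 and -1.24 in replicate 2. The other bright Slc1a3 probe set, 1371130_at, had 7.37 and 6.96 in TSP1 and 7.30 and 6.76 in Alone arrays, a difference of 0.14 of the opposite sign (interval -0.31 to 0.58). The mean differences of these Slc1a3 probe sets thus had different signs, though that of 1371130_at was -0.135 without replicate 2 of Alone and -0.07 without replicate 1 of TSP1. In replicate 2 of TSP1 the gap between TSP1 and Alone rests on 1 of them.

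Lum, Dcn and Pdgfra, which are on the lists of other cell types, also had lower means in TSP1 arrays, while their lists were mixed. Lum, a fibroblast matrix proteoglycan, had 3.49 and 4.87 in TSP1 arrays and 4.68 and 6.95 in Alone arrays. Dcn, another such proteoglycan, had 4.48 and 5.88 in TSP1 and 5.59 and 7.75 in Alone arrays. Pdgfra, a growth factor receptor of oligodendrocyte precursors and of fibroblasts, had 5.77 and 5.62 in TSP1 and 6.32 and 7.77 in Alone arrays. As for Slc1a3 on 1368565_at, the TSP1 value was the lower one in both replicates, by more in replicate 2, and the high Alone value was replicate 2. Of the 9 fibroblast and pericyte markers, 5 had lower and 3 higher means with TSP1, with a median difference of -0.125 and Rgs5 highest at 0.06. Of the 9 measured oligodendrocyte markers, 6 had lower and 3 higher means, with a median of -0.065 and Sox10 highest at 0.205. None of either list passed (limma), and the median over all probe sets was -0.005. The summed linear signal of the fibroblast list was 683 and 882 in TSP1 and 758 and 1239 in Alone arrays, and that of the oligodendrocyte list 878 and 879 in TSP1 and 966 and 1033 in Alone arrays. Their part in the Slc1a3 result was not tested.

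The other unadjusted p under 0.05 was that of Glul on 1367632_at, with 10.16 and 10.13 in TSP1 arrays and 9.74 and 10.03 in Alone arrays. The TSP1 arrays were higher, by 0.26 (95% interval 0.00 to 0.52, adjusted p = 0.985 from limma). Gfap had 4.83 and 5.18 in TSP1 and 5.29 and 5.25 in Alone arrays, lower with TSP1 by a margin that the test did not separate from the spread (-0.27, interval -0.56 to 0.03). Slc1a2 had 3.94 and 3.90 in TSP1 and 4.22 and 4.03 in Alone arrays on 1369693_a_at (difference -0.21, interval -0.43 to 0.02). On 1369694_at it had 3.53 and 3.39 in TSP1 and 3.65 and 3.73 in Alone arrays (difference -0.23, interval -0.46 to 0.00). Both Slc1a2 probe sets thus had the lower values with TSP1, below the lower quartile of every array. Fgfr3, which stood highest with Gpc4, differed by -0.06 and -0.10 with TSP1. In all, 1 probe set had both TSP1 arrays above both Alone arrays (14.3% of all probe sets did) and 6 had both below (15.6%). The median difference over the 17 was -0.03.

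Set directly against each other, Gpc4 and TSP1 differed most in the same few genes. None of the 17 probe sets passed (limma), where 0.0612% of all probe sets did, and 3 of the 17 had an unadjusted p under 0.05, beside 4.51% of all. Fgfr3 on 1384056_at had 4.96 and 5.10 in Gpc4 and 4.38 and 4.51 in TSP1 arrays. The difference was 0.59 (standard error 0.10, 95% interval 0.36 to 0.81, adjusted p = 0.206 from limma), and it was 0.58 and 0.59 within the replicates. Gfap had 5.50 and 5.65 in Gpc4 and 4.83 and 5.18 in TSP1 arrays, a difference of 0.57 (95% interval 0.27 to 0.87, adjusted p = 0.529). Slc1a3 on 1368565_at had 7.16 and 6.97 in Gpc4 and 6.55 and 5.97 in TSP1 arrays, a difference of 0.81 (95% interval 0.25 to 1.36, adjusted p = 0.882). On these 3 probe sets the groups did not overlap and both replicates differed the same way. The other probe sets of Fgfr3 and Slc1a3 overlapped between the groups, with a difference of 0.105 for Fgfr3 on 1369373_at, -0.05 for Slc1a3 on 1371130_at (-0.26 in replicate 1 and 0.16 in replicate 2) and 0.01 for Slc1a3 on 1388064_a_at. Of the 17, 6 had both Gpc4 arrays above both TSP1 arrays (14.6% of all probe sets did) and 0 had both below (15.5%). Vim was at 10.61 and 11.47 in Gpc4 and 10.71 and 11.57 in TSP1 arrays, -0.10 within each replicate.

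The genes that surround these markers in their pathways did not pass in any of the 3 comparisons of conditions. None of the 16 measured FGF receptors, ligands and response genes passed. In the comparison of Gpc4 with TSP1, the highest difference among them was that of Fgfr2, another FGF receptor, with 4.59 and 5.07 in Gpc4 and 4.12 and 4.47 in TSP1 arrays (difference 0.54, adjusted p = 0.967 from limma). Spry1, a feedback inhibitor of receptor tyrosine kinases, had the highest difference of this list with Gpc4 against Alone, 0.25. None of 15 glutamate and glutamine transporters and enzymes, 10 connexins and pannexins, 8 aquaporins and dystrophin complex genes, 13 S100 family genes or 10 other intermediate filament genes passed. Of 16 measured genes that rise in reactive glia, none passed, and their median difference was -0.05 with Gpc4 and -0.05 with TSP1. The median of the 20 further glial genes was 0.00 with Gpc4 and 0.03 with TSP1, beside -0.005 over all probe sets in both.

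The last comparison was between the cultures, replicate 2 against replicate 1, fitted with the condition as a second term. Of the 17 probe sets 1 passed, Vim, where 0.561% of all probe sets passed (0.432% higher and 0.129% lower in replicate 2). In replicate 2 arrays Vim was at 11.47 (Gpc4), 11.57 (TSP1) and 11.46 (Alone), and in replicate 1 arrays at 10.61 (Gpc4), 10.71 (TSP1) and 10.78 (Alone). All 3 arrays of replicate 2 were above all 3 of replicate 1. The difference was 0.80 on the log2 scale, or 1.74-fold (standard error 0.08, 95% interval 0.62 to 0.98, adjusted p = 0.00468 from limma), with 0.86 in Gpc4, 0.86 in TSP1 and 0.68 in Alone. It compares 2 cultures, each measured under 3 conditions, and not culture in general. Without any 1 of the 6 arrays, no probe set on the array passed and the Vim difference was 0.77 to 0.86 (adjusted p 0.573 to 0.729, 1 residual degree of freedom).

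Vim stood alone among the markers. Next by p came Slc1a3 on 1371130_at, with 7.12, 6.96 and 6.76 in replicate 2 and 7.11, 7.37 and 7.30 in replicate 1 (Gpc4, TSP1 and Alone), a difference of -0.31 (adjusted p = 0.352 from limma). Aqp4 on 1368981_at had 3.48, 3.44 and 3.33 in replicate 2 and 3.62 in each array of replicate 1, a difference of -0.20 (adjusted p = 0.365 from limma). Only this Aqp4 probe set and Vim had cultures that did not overlap, in opposite directions, where 7.87% of all probe sets were wholly lower and 6.26% wholly higher in replicate 2. Gfap was at 5.65, 5.18 and 5.25 in replicate 2 and 5.50, 4.83 and 5.29 in replicate 1 (Gpc4, TSP1 and Alone), a difference of 0.15 with an interval of -0.06 to 0.36. The 3 Glul probe sets differed by 0.08, 0.00 and 0.08. Replicate 2 was below replicate 1 in all 3 conditions for 4 of the 17 (Gjb6, S100b and 1 probe set each of Aqp4 and Slc1a2), beside 17.5% of all probe sets, and above in all 3 for Vim alone, beside 13.9%. The median difference over the 17 was -0.05, and -0.01 over all probe sets.

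**Figure D4:**
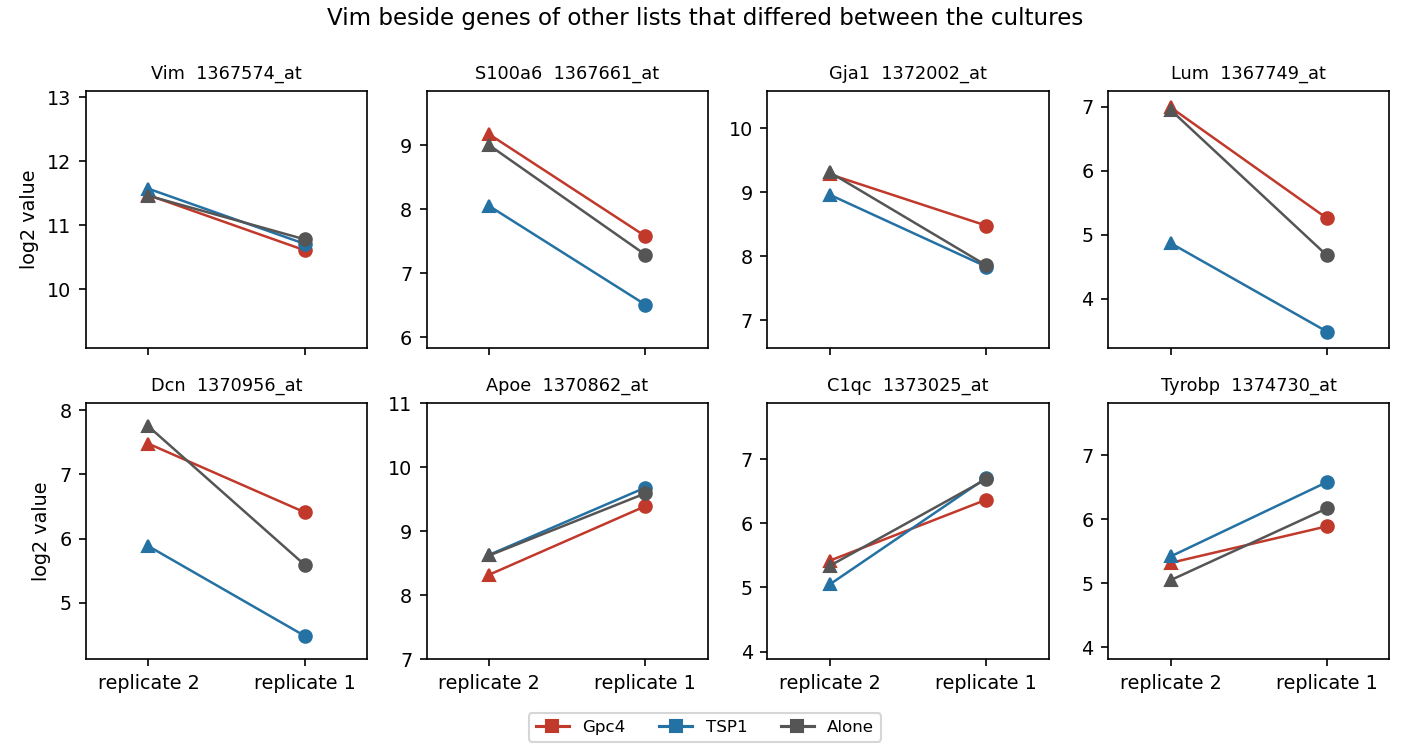
Log2 values (vertical axes, each spanning the same number of log2 units) of Vim and 7 genes of other lists in replicate 2 (triangles, left) and replicate 1 (circles, right), with a line per condition in red (Gpc4), blue (TSP1) and grey (Alone). Vim, S100a6, Gja1, Lum and Dcn are higher in replicate 2 in all 3 conditions, and Apoe, C1qc and Tyrobp lower.

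Genes of other cell types passed in the same comparison. Lum was at 6.99, 4.87 and 6.95 in replicate 2 and 5.26, 3.49 and 4.68 in replicate 1 (Gpc4, TSP1 and Alone), a difference of 1.79 (adjusted p = 0.00307 from limma). Dcn was at 7.48, 5.88 and 7.75 in replicate 2 and 6.41, 4.48 and 5.59 in replicate 1, a difference of 1.54 (adjusted p = 0.0102). These 2 of the 9 fibroblast and pericyte markers passed, both higher in replicate 2, and the median of the 9 was 0.45. Means were higher in replicate 2 for 6 of the 9 and lower for 3. The summed linear signal of that list was 1069, 882 and 1239 in replicate 2 and 797, 683 and 758 in replicate 1 (Gpc4, TSP1 and Alone). Microglia markers ran the other way. All 11 had lower means in replicate 2, with a median of -0.45, and 4 passed: C1qa, C1qb and C1qc, the chains of complement C1q, and Tyrobp, an adaptor of myeloid receptors. C1qc was at 5.42, 5.05 and 5.34 in replicate 2 and 6.37, 6.71 and 6.69 in replicate 1, a difference of -1.32 (adjusted p = 0.00468). The summed signal of the 11 was 472, 447 and 435 in replicate 2 and 628, 766 and 699 in replicate 1. Vim was higher in the culture with the higher summed fibroblast signal and the lower summed microglial signal. The part of either in the Vim difference was not tested. No listed marker of ganglion cells, oligodendrocytes or endothelium passed. Gad1, the GABA-synthesising enzyme, was the only one of 8 measured genes of other retinal neurons to pass (0.61, adjusted p = 0.0157), on 1 of its 2 probe sets.

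**Figure D5:**
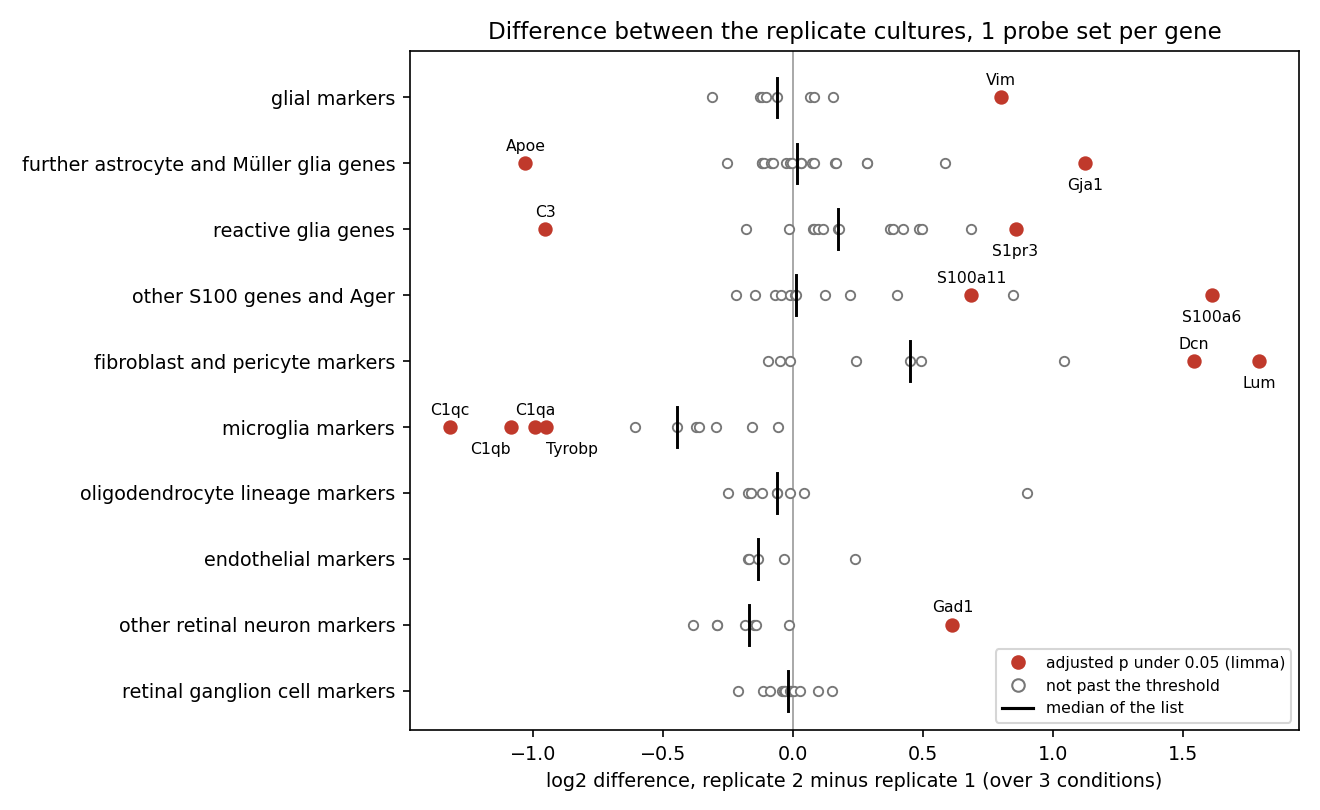
Difference in log2 value between the cultures, replicate 2 minus replicate 1 over the 3 conditions (horizontal axis), for each gene (circles) of 10 lists (rows), 1 probe set per gene; filled red circles passed an adjusted p under 0.05 in limma and black bars are list medians. Vim is the only glial marker that passed (0.80), the 4 microglia genes that passed lie left of 0, and Lum and Dcn lie right of it.

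Among the other glial genes, few differed between the cultures. Of the 20 further astrocyte and Müller glia genes, 1 was higher and 1 lower in replicate 2, with a list median of 0.01. Gja1, which encodes the astrocyte gap junction protein connexin 43 and is also made by fibroblasts, was at 9.28, 8.96 and 9.31 in replicate 2 and 8.48, 7.84 and 7.86 in replicate 1 (Gpc4, TSP1 and Alone). Its difference was 1.12 on 1372002_at (adjusted p = 0.00653 from limma), while its other probe sets differed by 0.01 and -0.12. Apoe, a lipid carrier secreted by glia and by macrophages, was at 8.32, 8.63 and 8.62 in replicate 2 and 9.39, 9.68 and 9.59 in replicate 1. Its difference was -1.03 on 1370862_at (adjusted p = 0.00158), with 0.11 on the other probe set. For both genes the call thus rests on 1 probe set.

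Of the reactive glia genes, S1pr3, a sphingosine 1-phosphate receptor, was higher in replicate 2 (0.86, adjusted p = 0.00539 from limma). C3, a complement component, was lower (-0.95, adjusted p = 0.00341). The median of the 16 was 0.18, and 13 of the 16 had the higher mean in replicate 2. In the S100 family, 2 of 13 passed, both higher in replicate 2. S100a6, a calcium-binding protein of fibroblasts and some astrocytes, was at 9.17, 8.05 and 9.0 in replicate 2 and 7.58, 6.51 and 7.29 in replicate 1 (Gpc4, TSP1 and Alone). That is a difference of 1.61, or 3.06-fold (adjusted p = 1.68e-04 from limma), and S100a6 was lowest in the TSP1 array of each culture. S100a11, another member, differed by 0.69 (adjusted p = 0.0338), whereas S100b itself had 4.11, 4.06 and 3.89 in replicate 2 and 4.14, 4.21 and 4.09 in replicate 1, a difference of -0.13 (adjusted p = 0.559). No intermediate filament gene other than Vim passed. The highest of the 10 was Nes, which encodes the progenitor filament nestin, with 6.84, 6.73 and 6.95 in replicate 2 and 6.29, 6.41 and 6.33 in replicate 1 (difference 0.50). No FGF, glutamate, aquaporin or dystrophin complex gene passed between the cultures.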

How the data were processed

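The authors scanned rat genome arrays and processed them with Affymetrix Expression Console, whose version is not given in the sources used here. The deposited table holds log2 RMA values (corrected for background, normalized across arrays, 1 value per probe set, 2 decimals). All 6 arrays were used, grouped by their labels, without a further normalization or filter. Gene symbols are those of the platform annotation, which gives 1 symbol to 20826 probe sets (14217 genes), several to 436, which were not named, and none to 9780. No build is named for the arrays, so coordinates are given for RefSeq promoters (GRCr8) only.

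Differences were tested two-sided with limma 3.58.1 in R 4.3.3. A mean per group was fitted to all 6 arrays with lmFit and eBayes (3 residual degrees of freedom), with Benjamini-Hochberg adjustment of the p-values across the 31042 probe sets. The cultures were compared with group and replicate number in 1 fit (2 residual degrees of freedom). The number of arrays limits the precision. The scripts were tested on simulated data. Lists of related genes and of cell type markers (14 beside the 9 glial genes) were described by counts and medians, on the probe set of highest mean per gene, and no list was tested as a set. Every probe set of the 9 genes was named, and of other lists the genes past the threshold, the highest or lowest in a comparison, and those that check a cell type. The members and lists were chosen with earlier results of these data known. The replicate numbers were taken to mark the cultures, since the methods state that 2 separate cultures were used. Arrays with 1 number deviated together, at correlations of 0.29 (Gpc4 and Alone), 0.349 (TSP1 and Alone) and 0.374 (Gpc4 and TSP1). The main fits of the conditions did not use this pairing, and the replicate block among the alternatives did. Alternatives were median centring, quantile normalization, a mean of at least 6, the replicate block with and without it, a fit of only the groups compared, a variance trend, the methods' t-test, probe sets averaged per gene, and leaving out each array. Plots were made with matplotlib 3.10.9 (Python 3.11.15).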

Additional observations from a re-analysis of the deposited data

Results flagged for a closer look

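In the 3 comparisons of conditions, 6 differences on 4 probe sets ran in opposite directions in the 2 cultures, by more than 0.11 on the log2 scale in each. Each is a difference between single arrays, and the difference between the cultures was not tested. Gpc4 against Alone gave 0.36 in replicate 2 and -0.19 in replicate 1 for Slc1a3 on 1371130_at, 0.55 apart. On 1368565_at, also of Slc1a3, it gave -0.24 in replicate 2 and 0.58 in replicate 1, which is -0.82 apart and of the opposite order. TSP1 against Alone gave 0.27 in replicate 2 and -0.20 in replicate 1 for Glul on 1367633_at, 0.47 apart. For Aqp4 on 1387397_at it gave -0.34 in replicate 2 and 0.28 in replicate 1, or -0.62. Gpc4 against TSP1, which shares arrays with the others, gave 0.13 in replicate 2 and -0.30 in replicate 1 for Aqp4 on 1387397_at (0.43 apart), and 0.16 and -0.26 in replicates 2 and 1 for Slc1a3 on 1371130_at (0.42 apart).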

How the results depend on the processing

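No difference that passed changed sign, but of the 17 differences in each comparison, 6 (Gpc4 against Alone), 9 (TSP1 against Alone), 9 (Gpc4 against TSP1) and 8 (replicate 2 against replicate 1) changed sign under at least 1 alternative, all of them with an adjusted p of 0.561 or more and a size of at most 0.17. Each did so when single arrays were left out, and the ranges over the arrays left out follow. With Gpc4 against Alone, Aqp4 on 1368981_at gave -0.07 to 0.22, Fgfr3 on 1369373_at -0.06 to 0.07 and Slc1a3 on 1368565_at -0.145 to 0.485. Slc1a3 on 1371130_at gave -0.185 to 0.355, Slc1a3 on 1388064_a_at -0.04 to 0.24 and Vim on 1367574_at -0.51 to 0.35. For Vim, leaving an array out of a fit without the replicate number puts part of the gap between the cultures into the difference. With the replicate number as a block, the standard error of Vim was 0.09 in each comparison of conditions, in place of 0.37. With TSP1 against Alone, Aqp4 on 1368981_at gave -0.09 to 0.20, Aqp4 on 1372190_at -0.15 to 0.04, Aqp4 on 1387397_at -0.265 to 0.205, Fgfr3 on 1384056_at -0.125 to 0.005 and Glul on 1367633_at -0.115 to 0.185. Glul on 1386870_at gave -0.07 to 0.05, Slc1a3 on 1371130_at -0.135 to 0.405, Slc1a3 on 1388064_a_at -0.05 to 0.23 and Vim on 1367574_at -0.41 to 0.45. With Gpc4 against TSP1, Aqp4 on 1368981_at gave -0.07 to 0.11, Aqp4 on 1372190_at -0.085 to 0.105, Aqp4 on 1387397_at -0.32 to 0.15, Gjb6 on 1368577_at -0.09 to 0.03 and Glul on 1367633_at -0.005 to 0.295. S100b on 1386903_at gave -0.085 to 0.065, Slc1a3 on 1371130_at -0.255 to 0.155, Slc1a3 on 1388064_a_at -0.03 to 0.05 and Vim on 1367574_at -0.53 to 0.33. Between the cultures, with or without the condition in the fit, Aqp4 on 1387397_at gave -0.255 to 0.055, Fgfr3 on 1384056_at -0.14 to 0.23, Gfap on 1368353_at -0.035 to 0.30 and Glul on 1367632_at -0.0817 to 0.19. Glul on 1367633_at gave -0.03 to 0.205, Slc1a2 on 1369694_at -0.16 to 0.0067, Slc1a3 on 1368565_at -0.385 to 0.33 and Slc1a3 on 1388064_a_at -0.04 to 0.14. Quantile normalization also turned Fgfr3 on 1369373_at with Gpc4 against Alone (-0.0042) and Slc1a3 on 1388064_a_at with Gpc4 against TSP1 (-0.01), and median centring turned that Slc1a3 probe set and Aqp4 on 1372190_at with Gpc4 against TSP1 (-0.005 for each). The count of glial marker probe sets past the threshold was 0 in each comparison of conditions under every limma alternative and under the methods' t-test with Benjamini-Hochberg adjustment. At an unadjusted p of 0.05 or less the methods' t-test gave 2 with Gpc4 against Alone (Fgfr3 on 1384056_at and Gjb6) and 2 with Gpc4 against TSP1 (Fgfr3 on 1384056_at and Glul on 1367632_at), where the same test gave 1704 (5.49%) and 1433 (4.62%) of all 31042 probe sets. With the replicate number as a block the count was 0 in all 3, and the block changed no call among the markers; the adjusted p of Fgfr3 on 1384056_at was 0.139 against Alone and 0.088 against TSP1. Between the cultures, leaving out each array in turn gave 0 to 1 probe set. It was 0 each time with the condition in the fit, which then has 1 residual degree of freedom. It was Vim each time without it, a setting chosen after seeing the data (0.755 to 0.84, adjusted p 0.0196 to 0.0482). Over all probe sets the calls numbered 26 for Gpc4 against Alone (64 with the block, 0 to 1704 over alternatives, the highest here and for the other conditions from the unadjusted t-test), 0 for TSP1 against Alone (4 with the block, 0 to 1280), 19 for Gpc4 against TSP1 (80 with the block, 0 to 1433) and 174 between the cultures (0 to 264). A mean of at least 6 left 6 of the 17 probe sets. Signals below the array medians limit what can be said of the 10 dim ones.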
